A study of Mus musculus with 8 samples.

Results

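The 10 genes described here encode the main cytosolic heat shock chaperones and the mitochondrial chaperonin: the inducible HSP70 genes Hspa1a and Hspa1b, the constitutive HSP70 gene Hspa8, the HSP90 genes Hsp90aa1 and Hsp90ab1, the cochaperone genes Dnajb1, Dnaja1 and Hsph1, and the chaperonin genes Hspd1 and Hspe1. They were listed by name, with no cut on their measured values but with earlier results of these data known. The count table of 31053 Ensembl genes held all 10. Of these, 9 passed the filter on low counts and were tested, and Hspa1b did not.

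Brown adipose tissue (BAT), the fat depot that burns lipid to make heat, was taken from 4 WT and 4 db/db mice aged 8 weeks, and its RNA was sequenced in bulk to learn how obesity changes this tissue. WT mice are labelled C57BL6/J. The db/db mice are of the line B6.BKS(D)-Leprdb/J and carry a mutated leptin receptor gene in every cell from birth, so that effects within the tissue cannot be told apart from effects of overeating, obesity and diabetes. All mice were males on normal diet, and tissue was taken after a fast. Each sample also bears the cell type label Stromal Vascular Fraction, whereas the methods describe BAT. Of 10 brown adipocyte markers, 8 could be tested (2 higher and 5 lower in db/db), and the 10 together held 16501 to 22668 CPM (counts scaled to a common library size) in WT and 17196 to 23325 CPM in db/db, so the libraries contained adipocyte RNA in quantity. The largest share of this sum was Fabp4, which all adipocytes express and which was higher in db/db, as was Plin1, another general adipocyte gene. The 5 lower markers were the brown adipocyte genes Ucp1 (log2 fold change −0.65), Cidea (−1.24), Ppargc1a (−0.79), Cox8b (−0.63) and Cox7a1 (−0.49).

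HSP70 proteins bind unfolded stretches of other proteins in cycles of ATP hydrolysis. J-domain proteins bring clients to them and start the cycle, HSP110 proteins reset it, and HSP90 acts later, on nearly folded clients such as kinases and steroid receptors. In the mitochondrial matrix, where brown adipocytes import large amounts of protein, newly imported chains are taken up by mitochondrial HSP70 and can then fold inside the HSP60 barrel, which the HSP10 ring closes. Several of these genes respond to heat shock factor 1, which binds arrays of short inverted repeats called heat shock elements.

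RefSeq promoter windows on GRCm38.p6, from 250 bases before to 50 bases after an annotated start, were at hand for 7 of the 10 genes, in 12 windows. They were missing for Hspa8, Hsp90aa1 and Hsp90ab1. Both strands were searched for 2 units of the element, GAANNTTC or TTCNNGAA, and for 3 units, GAANNTTCNNGAA or TTCNNGAANNTTC, each of which contains overlapping copies of the 2-unit forms. The 2-unit motif was present for 6 of the 7 genes, all but Dnajb1, against 17.0% of 27025 genes with a window and 15.1% of all 32851 windows. The 3-unit motif was present for Hsph1, Hspd1 and Hspe1, against 0.662% of genes and 0.603% of windows. A match describes these letters and is not a binding site. The stretches below are shown because they place the inducible HSP70 pair, the cochaperones and the chaperonin pair side by side, with the matched letters in capitals.
Hspa1a, minus strand, GRCm38 chr17:34972242-34972271: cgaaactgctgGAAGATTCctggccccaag
Hspa1b, minus strand, GRCm38 chr17:34959324-34959353: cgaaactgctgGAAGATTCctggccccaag
Dnaja1, plus strand, GRCm38 chr4:40722333-40722362: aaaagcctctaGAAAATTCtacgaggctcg
Hsph1, minus strand, GRCm38 chr5:149636280-149636308: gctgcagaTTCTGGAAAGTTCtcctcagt
Hspe1, plus strand, GRCm38 chr1:55088053-55088082: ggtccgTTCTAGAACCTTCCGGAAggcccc

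The motif began 104 bases before the start of Hspa1a and of Hspa1b. The 300-base windows of these neighbours were identical at 296 positions, and their starts lie 12918 bases apart. In Dnaja1 the match lay in 1 of 3 windows, 124 bases before that window's start and inside an annotated exon of Dnaja1. In Hsph1 a run of 3 units began 15 bases after one of its annotated starts, inside the gene. In Hspe1 a run of 4 units began 89 bases before the start. Hspe1 and Hspd1 are transcribed away from each other, and the same 4 units lie 144 bases before one of the 2 annotated starts of Hspd1, since these 2 windows share 285 bases of the same DNA. The other Hspd1 window, at the outer start, held no match, and the printed stretch falls in an Hspd1 exon of that longer transcript.

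The WT libraries held 2374079 to 2615009 counts and the db/db libraries 2382722 to 3240074. The detection floor, taken as 3 counts, corresponds to 0.902 to 1.33 CPM. The floor covers counting error only, whereas intervals of log2 fold changes also include the spread between libraries. Lepr, the gene mutated in db/db mice, had 0 counts in all 8 libraries, which leaves the genotype labels unchecked at this depth. Summed skeletal muscle markers were 394 to 1362 CPM in WT and 1990 to 9954 CPM in db/db, with db/db 1 highest, and 11 of 11 were higher in db/db. Macrophage markers (7 of 8 higher) held 146 to 194 CPM in WT and 668 to 1205 CPM in db/db, fibroblast markers (4 of 4 higher) were 464 to 574 CPM against 891 to 1854 CPM, 1 of 4 endothelial markers was lower, and 1 of 4 red blood cell markers was higher (3087 to 8669 CPM against 6435 to 16921 CPM). None of 4 lymphocyte markers could be tested, with at most 3.61 CPM in sum in any library and 1 at 0 throughout. In bulk tissue, fewer cells of a type and less RNA per cell cannot be told apart.

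A single one of these chaperone genes differed between the genotypes by the test. Hspe1, which encodes HSP10, the lid of the mitochondrial chaperonin, fell in db/db BAT by 0.52 on the log2 scale, to 0.699 of the WT level. Hsp90aa1 had a log2 difference of 0.41 and fell just short of the threshold. The HSP60 gene Hspd1, Hsp90ab1, the most abundant of the 10, and Hspa8 had log2 differences between −0.17 and 0.14. Of the 9 genes tested, 1 (11.1%) passed the edgeR quasi-likelihood F test at an adjusted p of 0.05, 0 higher and 1 lower, where 27.7% of the 9264 genes tested passed, 15.8% higher and 11.9% lower. At an unadjusted p of 0.05 there were 2, Hspe1 and Hsp90aa1. DESeq2 also called 0 higher, and limma-voom called 1, Hsp90aa1. Hspe1 was also the single gene of the 9 whose 4 WT and 4 db/db values did not overlap, against 28.1% of all genes tested. The median log2 difference of the 9 genes was −0.15, against 0.01 for all genes tested, and the median size was 0.20 against 0.38. For 7 of the 9 the 95% interval of the log2 difference lay within 1 on either side of 0. The intervals of Hspa1a and Hsph1 reached further.

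**Figure D1:**
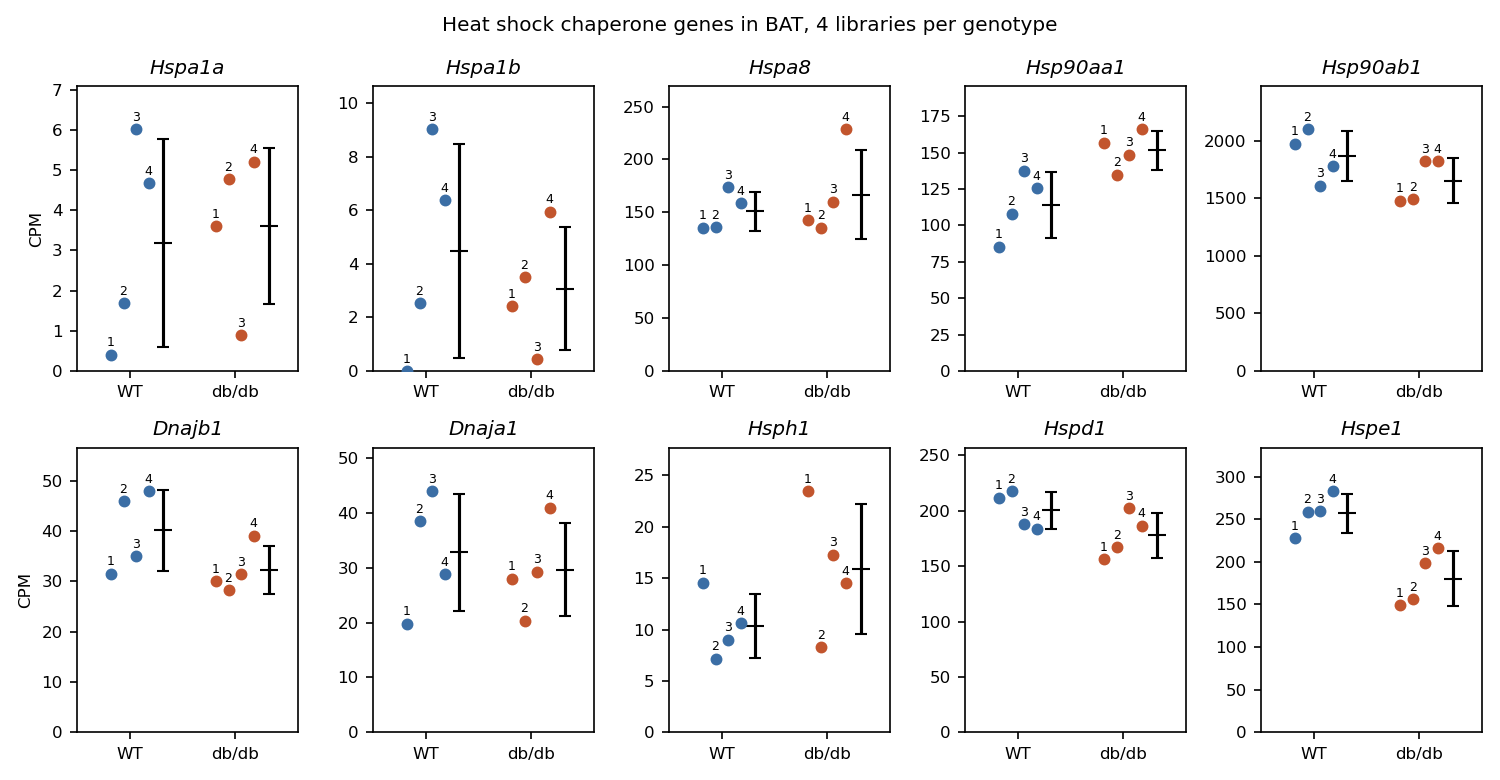
CPM of the 10 chaperone genes in the 4 WT (blue) and 4 db/db (orange) BAT libraries, 1 panel per gene with its own linear axis from 0. Numbers are replicate numbers, and black bars give the mean and SD. The WT and db/db points are apart in Hspe1 (227 to 283 against 149 to 216 CPM) and overlap in the other 9 panels.

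Hspa1a and Hspa1b encode the stress-inducible HSP70, 2 genes whose proteins are nearly identical. Hspa1a (ENSMUSG00000091971, mm10 chromosome 17, 34969190 to 34972156, minus strand) had 1, 4, 16 and 11 counts in WT replicates 1 to 4 and 12, 15, 2 and 14 counts in db/db replicates 1 to 4. Hspa1b (ENSMUSG00000090877, chromosome 17, 34956436 to 34959238, minus strand) had 0, 6, 24 and 15 counts in WT and 8, 11, 1 and 16 in db/db. Both genes were thus near the detection floor in WT 1 and db/db 3 and highest in WT 3, and the genotypes overlapped. The 0 of Hspa1b in WT 1 allows up to 1.21 CPM. Of the 75-base windows of the 2 transcripts, 54.2% and 55.8% also occur in another gene, mostly in the other of the pair, although none of the last 500 windows before the transcript end do, so the split of reads between them is uncertain.

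Whether reads that match both genes were dropped is not given in the sources used here. The sum of both genes does not depend on how reads were split between them, but it would miss any that were dropped. It was 0.405, 4.22, 15.03 and 11.04 CPM in WT and 6.02, 8.27, 1.33 and 11.2 CPM in db/db. These values spread far more within each genotype than the means differed, at 7.67 ± 6.59 CPM in WT and 6.69 ± 4.15 CPM in db/db (SD, n = 4 each). On the log2(CPM + 1) scale the mean was 0.10 higher in db/db, the opposite direction to the arithmetic means (exact two-sided permutation p = 0.914, smallest possible p 0.0286), and it became negative without WT 1 (−0.61), db/db 2 (−0.07) or db/db 4 (−0.20). Hspa1a alone had a log2 fold change of 0.20 (95% interval −1.04 to 1.43, edgeR adjusted p 0.841), and the sign turned without WT 1 (−0.17), WT 2 (−0.0066) or db/db 4 (−0.00052). Hspa1b was tested under 2 alternatives, DESeq2 and edgeR on every gene with a count, with a log2 fold change of −0.57 in both (adjusted p 0.695 and 0.492). A difference of the inducible pair was not detectable with these counts, and a log2 change of 1 in either direction lies within the interval of Hspa1a.

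The variation of the pair from library to library stood beside that of the immediate early genes, 9 transcription factor and signalling genes that respond within minutes to handling or hormones. Their summed level was 88.2, 436, 272 and 172 CPM in WT and 153, 340, 128 and 288 CPM in db/db. WT 1 and db/db 3, the libraries with the least Hspa1a and Hspa1b, were also the lowest of their genotype for this list, while WT 2, the highest, was not the highest for the pair. Of the 7 immediate early genes tested, 1 was higher and 1 lower in db/db. Their part in the values of Hspa1a and Hspa1b was not tested.

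Hspa8 encodes HSC70, the constitutive cytosolic HSP70 that also serves chaperone-mediated autophagy and the uncoating of clathrin vesicles. Its levels (ENSMUSG00000015656, chromosome 9, 40800984 to 40810087, plus strand) were 135.6, 135.9, 173.6 and 158.8 CPM in WT and 142.9, 135.5, 160.0 and 228.4 CPM in db/db. Apart from db/db 4, which was the highest, every db/db library lay inside the WT range to within 1 CPM. The log2 fold change was 0.14 (SE 0.16, 95% interval −0.20 to 0.49, edgeR adjusted p 0.566), and −0.05 without db/db 4. Reads of this gene are uncertain, since 68.0% of its windows, and 83.6% of the last 500, also occur in transcripts of 9 other annotated genes. Those sharing most windows, Gm15459, Gm8355 and Gm6210, are not in the count table, and the others were not looked up. Within Hspa8 also lie 3 small nucleolar RNA genes. Relative to Hspa8, the inducible pair made up 0.00447, 0.0326, 0.0876 and 0.0708 counts per count in WT and 0.0431, 0.0621, 0.00968 and 0.0496 in db/db. In all 8 libraries Hspa8 therefore held more than 10 times the counts of both inducible genes together, and the ratio did not differ beyond the spread (log2 difference 0.13, exact permutation p = 0.886, adjusted over 3 ratios 0.886), turning negative without WT 1, db/db 2 or db/db 4 (range over left-out libraries −0.80 to 0.73).

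Hsp90ab1, the constitutive cytosolic HSP90, was the most abundant of the 10 genes in every library. It measured 1973, 2096, 1608 and 1776 CPM in WT and 1479, 1490, 1823 and 1820 CPM in db/db (ENSMUSG00000023944, chromosome 17, 45567775 to 45573271, minus strand). The 2 lowest libraries were db/db 1 and db/db 2, and the other 2 db/db libraries lay inside the WT range. The log2 fold change was −0.17 (SE 0.14, 95% interval −0.47 to 0.12, edgeR adjusted p 0.387). This was the gene with the most counts behind it, from 4112 to 4967 per library, and just 0.736% of its windows occur elsewhere.

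Hsp90aa1 is the inducible HSP90 isoform, and its difference had the opposite sign. It stood at 85.4, 108.0, 137.5 and 125.6 CPM in WT and at 156.7, 134.9, 148.5 and 165.9 CPM in db/db (ENSMUSG00000021270, chromosome 12, 110690605 to 110702728, minus strand). Of the 4 db/db libraries, 3 were above every WT library, and db/db 2 was just below WT 3. Means were 114.2 ± 22.7 and 151.5 ± 13.2 CPM (SD, n = 4 each), a log2 fold change of 0.41 (SE 0.15, 95% interval 0.09 to 0.72, p 0.0148) with an edgeR adjusted p of 0.0525. It passed without WT 3 (adjusted p 0.0279) and without db/db 2 (0.0486), and under 3 other alternatives, among them limma-voom (0.0421) and a minimum of 10 counts in every sample (0.0283). Over all alternatives the adjusted p ran from 0.0279 to 0.605, the latter with the muscle marker score, which moves with genotype, as a covariate. Of its windows 53.1% also occur in other genes that are not in the count table, none of them among the last 500.

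Within each library the Hsp90aa1 to Hsp90ab1 ratio was 0.0434, 0.0516, 0.0856 and 0.0709 in WT and 0.106, 0.0906, 0.0816 and 0.0913 in db/db. This ratio of counts does not depend on how the libraries are scaled. As with the level of Hsp90aa1, WT 3 was the one WT library within the db/db range. The ratio was 1.51-fold higher in db/db by the mean of log2 ratios (0.0629 ± 0.0191 against 0.0924 ± 0.0101 as arithmetic mean ± SD, n = 4 each), which did not pass (exact two-sided permutation p = 0.0571, adjusted over 3 ratios 0.0857). The log2 difference stayed between 0.44 and 0.76 when single libraries were left out.

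Dnajb1, Dnaja1 and Hsph1 are the cytosolic partners of HSP70. Dnajb1, or HSP40, is the J-domain protein that delivers unfolded clients and is itself induced by heat. It measured 31.6, 46.0, 34.9 and 48.0 CPM in WT and 30.1, 28.3, 31.5 and 39.1 CPM in db/db (ENSMUSG00000005483, chromosome 8, 83608193 to 83612653, plus strand). In db/db 3 libraries were below every WT library and db/db 4 was among them, and the log2 fold change was −0.32 (SE 0.18, 95% interval −0.70 to 0.07, edgeR adjusted p 0.220). None of its windows was shared with another gene.

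Dnaja1, a farnesylated J-domain protein, varied most among libraries of the cochaperones in WT. It had 19.8, 38.4, 44.0 and 28.9 CPM in WT and 28.0, 20.4, 29.3 and 40.9 CPM in db/db (ENSMUSG00000028410, chromosome 4, 40722150 to 40737149, plus strand). The genotypes overlapped over almost their whole range. The log2 fold change was −0.15 (SE 0.25, 95% interval −0.67 to 0.37, edgeR adjusted p 0.693) and 0.01 without WT 3. Dnaja1 overlaps Smu1 on the other strand, a gene with up to 132 counts, and 16.6% of its windows occur elsewhere, so its counts are uncertain.

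Hsph1, or HSP110, is the nucleotide exchange partner of HSP70, and it had the largest positive difference of the 9 genes. Its levels were 14.6, 7.17, 9.02 and 10.6 CPM in WT and 23.5, 8.27, 17.3 and 14.5 CPM in db/db (ENSMUSG00000029657, chromosome 5, 149614287 to 149636376, minus strand). Library db/db 1 was highest, and db/db 2 and db/db 4 lay within the WT range. The log2 fold change was 0.62 (SE 0.32, 95% interval −0.05 to 1.28, edgeR adjusted p 0.159). Libraries db/db 1 and db/db 2 moved it most: without db/db 2 it was 0.84 and passed (adjusted p 0.0434), and without db/db 1 it was 0.34 (0.488). Library db/db 1 is the one with the most skeletal muscle RNA. With the muscle score as a covariate, which moves with genotype, the Hsph1 value was 0.15 (adjusted p 0.920). The part of muscle RNA in the Hsph1 values was not tested.

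**Figure D2:**
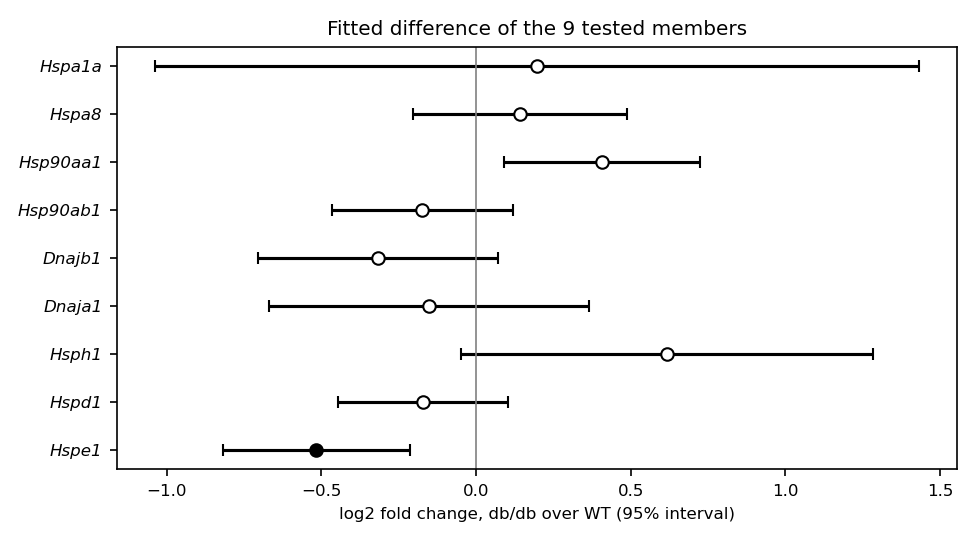
Log2 fold change of db/db over WT for the 9 tested genes, as points with 95% intervals from the edgeR fit on 4 against 4 libraries. The filled point marks Hspe1, the gene with an adjusted p under 0.05 (0.0120), and the vertical line is no difference. The intervals of Hspa1a (−1.04 to 1.43) and Hsph1 (−0.05 to 1.28) are the widest.

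Hspd1 (HSP60) and Hspe1 (HSP10) encode the barrel and the lid of the mitochondrial chaperonin from neighbouring genes on chromosome 1 that are read in opposite directions from a shared start region. Hspe1 measured 227.4, 258.7, 259.3 and 283.1 CPM in WT and 149.2, 156.5, 198.1 and 216.1 CPM in db/db (ENSMUSG00000073676, 55088132 to 55091307, plus strand). Each db/db library was below each WT library, with db/db 1 and db/db 2 the lowest. Hspe1 fell from 257.1 ± 22.8 to 180.0 ± 32.3 CPM (mean ± SD over 4 libraries each), a log2 change of −0.52 (SE 0.14, 95% interval −0.82 to −0.21) with an edgeR adjusted p of 0.0120. Leaving out each library in turn gave −0.62 to −0.44 with adjusted p from 0.00533 to 0.0456, and without db/db 1 it was −0.44 (0.0263). With the muscle marker score as a covariate the log2 fold change was −0.42 and the adjusted p 0.349, a fit in which the covariate moves with genotype.

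Hspd1 measured 211.6, 217.8, 187.9 and 183.8 CPM in WT and 156.1, 167.0, 202.1 and 186.4 CPM in db/db (ENSMUSG00000025980, 55077835 to 55088243, minus strand). As for Hspe1, db/db 1 and db/db 2 were the lowest, but db/db 3 and db/db 4 lay inside the WT range. The log2 fold change was −0.17 (SE 0.13, 95% interval −0.45 to 0.10, edgeR adjusted p 0.356). The 2 genes overlap by 112 bases at their starts. Of the Hspd1 windows 33.7%, and of the Hspe1 windows 23.7% (33.2% of its last 500), occur in other genes, so that both are uncertain to that extent. The genes sharing most of these windows are not in the count table, and for Hspd1 not every one was looked up.

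The Hspd1 to Hspe1 ratio of counts was 0.931, 0.842, 0.725 and 0.649 in WT and 1.05, 1.07, 1.02 and 0.862 in db/db. In db/db 3 libraries were above every WT library, and db/db 4 was among them. The ratio was 1.28-fold higher in db/db by the mean of log2 ratios (0.787 ± 0.124 against 0.999 ± 0.0930 as arithmetic mean ± SD, n = 4 each), which did not pass (exact two-sided permutation p = 0.0571, adjusted over 3 ratios 0.0857). The fall of Hspe1 past the threshold, and that of Hspd1 short of it, is thus not shown to be a difference between the 2 genes.

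**Figure D3:**
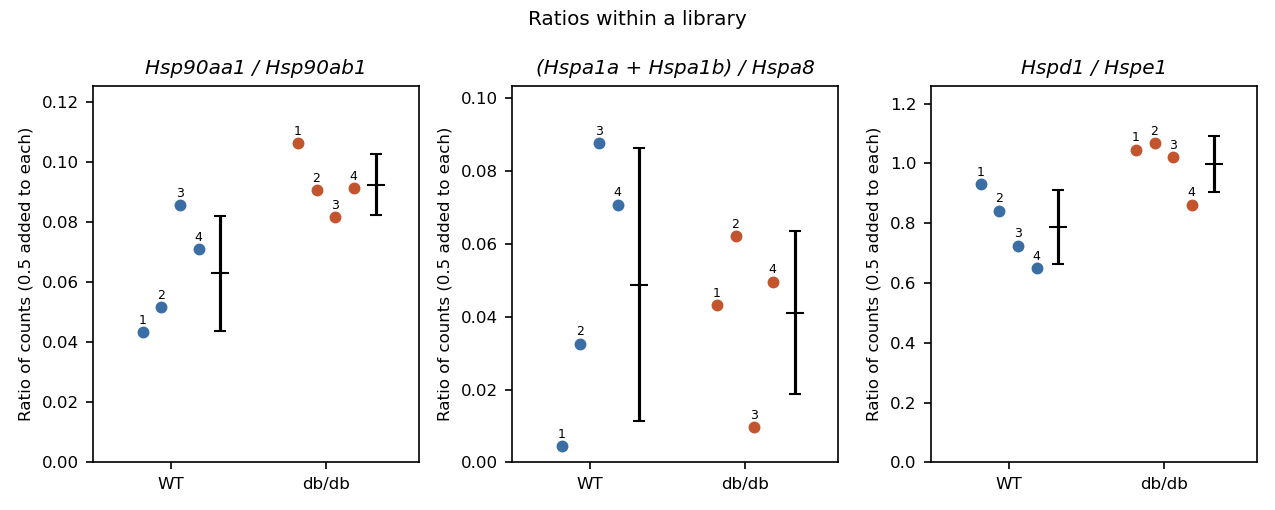
Ratios of counts within each library, with 0.5 added to each count, for 4 WT (blue) and 4 db/db (orange) libraries on linear axes from 0, with replicate numbers and the mean and SD in black. Hsp90aa1 to Hsp90ab1 lies at 0.0434 to 0.0856 in WT and 0.0816 to 0.106 in db/db, the inducible pair to Hspa8 overlaps throughout, and Hspd1 to Hspe1 lies at 0.649 to 0.931 and 0.862 to 1.07.

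Divided by exon length, the order of levels in WT was Hsp90ab1 with 621 CPM per kb, Hspe1 with 174, Hspd1 with 75.8, Hspa8 with 35.1, Hsp90aa1 with 29.0, Dnajb1 with 12.5, Dnaja1 with 3.80, Hspa1b with 1.598, Hsph1 with 1.42 and Hspa1a with 1.08 CPM per kb. In db/db the values were 551, 122, 67.3, 38.8, 38.5, 10.1, 3.43, 1.10, 2.19 and 1.22 CPM per kb for the same genes. Hspa8 and Hsp90aa1, which are neighbours in this order, drew level in db/db, and the 3 lowest genes changed places within their spread. Whether counts scale with length in this library type is not stated. The spread over libraries, as the SD in percent of the mean, was lowest for Hspd1 in WT (8.46%, with 11.5% in db/db) and for Hsp90aa1 in db/db (8.69%, with 19.9% in WT), and highest for Hspa1b (89.3% and 74.7%) and Hspa1a (81.2% and 53.7%).

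Deviations of log2 CPM from the genotype mean were correlated over the 8 libraries as a description, since these points share depth and tissue makeup. Hspa1a and Hspa1b, which share much of their sequence, had r of 0.98. Hsp90aa1 deviated with them (0.76 with Hspa1a and 0.83 with Hspa1b) and with Dnaja1 (0.80), whereas its constitutive counterpart Hsp90ab1 did not (−0.64 with Hspa1a, −0.36 with Hsp90aa1). Hsp90ab1 deviated with Hspd1 (0.91), and Hspe1 with Hspa8 (0.81) more than with its partner Hspd1 (0.45). Hsph1 had values between −0.44 and 0.06 with the other 9. Likeness to a mean deviation was also taken for 4524 genes with a mean of at least 20 CPM. Nop58 (0.96), Tatdn2 (0.95) and Vps4a (0.95) were most like that of the 7 tested cytosolic genes. Mrpl21 (0.98), Pskh1 (0.97) and Idh3g (0.96) were most like that of Hspd1 and Hspe1. Picked as the highest of so many genes over 8 libraries, such values can arise by chance.

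To set these genes beside the rest of the chaperone system, 89 further genes were listed by role, of which 88 were in the table and 83 could be tested. Of the 83, 11 were higher and 15 lower in db/db (31.3% called), with a median log2 fold change of −0.02. These shares, 13.3% higher and 18.1% lower, stand beside 15.8% higher and 11.9% lower of all genes, a difference that was not tested. Falls thus outnumbered rises here, and rises outnumbered falls over all genes. The order here turned without WT 3 (12 higher, 11 lower) and with the muscle marker score as a covariate (4 higher, 3 lower). The counts by role are given below, and differences between roles were not tested. Leaving out single libraries kept 20 of the 26 calls in every fit. Among those lost was Chordc1, which did not pass without WT 2, WT 4 or db/db 2 (edgeR adjusted p up to 0.0726). With the muscle marker score as a covariate 7 of the 26 remained: Hspa12a, Dnaja2, Dnajc21, Chordc1, Spg7, Hspb1 and Cryab. The score moves with genotype, and this fit cannot tell their parts apart. Several of the calls that were lost kept log2 fold changes of similar size in that fit, among them Bag3 (0.95), Ubb (0.97), Cct4 (−0.84), Fkbp4 (−0.57), Pam16 (−0.59) and Clpp (−0.61), while others shrank, such as Grpel1 (−0.10) and Hspb8 (0.32).

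**Figure D4:**
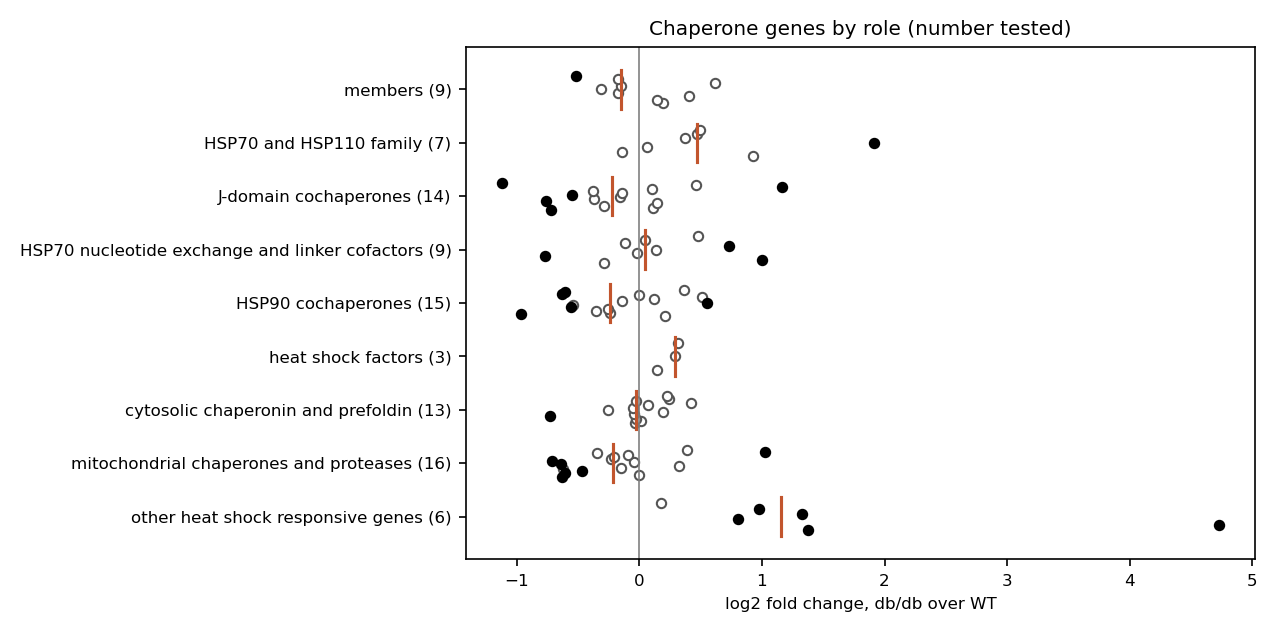
Log2 fold change of db/db over WT for the tested genes of each role, with the number tested in brackets. Filled points passed an edgeR adjusted p of 0.05, open points did not, and orange bars are medians. Of the other heat shock responsive genes 5 of 6 were higher, and of the mitochondrial chaperones and proteases 5 of 16 were lower and 1 higher.

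Of 7 tested HSP70 and HSP110 family genes 1 rose, Hspa12a, a distant relative, from 3.91 ± 1.36 to 14.8 ± 3.02 CPM (mean ± SD over 4 libraries each), a log2 change of 1.91 with SE 0.32 and an edgeR adjusted p of 2.31e-04. Hspa4, a second HSP110 gene, had a log2 fold change of −0.14 (adjusted p 0.465). Of 14 J-domain genes 4 fell and 1 rose. The falls were led by Dnajc21, a ribosome assembly factor (84.1 ± 7.62 to 38.5 ± 4.99 CPM, log2 fold change −1.12, edgeR adjusted p 2.59e-05), Dnajb6 (−0.76, 9.32e-04) and Dnaja2, a relative of Dnaja1 (−0.72, 0.00257), and Dnajc9, a histone chaperone, rose (1.16, 0.0106). Of 9 nucleotide exchange and linker genes, Bag3 rose from 30.9 ± 7.45 to 62.0 ± 5.67 CPM (mean ± SD over 4 libraries each), with an edgeR adjusted p of 4.21e-04, as did Hspbp1 (0.73, 0.0110), while Bag4 fell (−0.77, 0.00765). BAG3 couples HSP70 to small heat shock proteins and to autophagy, and its transcript was 22.7 to 38.2 CPM in WT and 54.5 to 66.5 CPM in db/db.

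Of 15 tested HSP90 cochaperones, which load clients and time the HSP90 cycle, 4 fell and 1 rose. The falls of lowest adjusted p were Sugt1, a client adaptor (log2 fold change −0.61, edgeR adjusted p 0.00608), Fkbp4, an immunophilin of steroid receptor complexes (118.9 to 80.9 CPM, −0.56, 0.00905), and Ahsa2 (−0.97, 0.0168), which overlaps Usp34 and is uncertain and which did not pass without WT 3 (0.0614). Fkbp8, a membrane-bound immunophilin, rose (0.55, 0.0380). It overlaps Kxd1 and is uncertain, and it did not pass without WT 1, WT 2, WT 4, db/db 2 or db/db 3 (adjusted p up to 0.136), nor under 6 of the 11 other alternatives, DESeq2 among them (0.0845). Of 3 heat shock factor genes 0 passed in the edgeR fit or with DESeq2. One, the factor-binding Hsbp1, had an unadjusted p under 0.05 (log2 fold change 0.32, edgeR adjusted p 0.0552), and it passed with limma-voom and with edgeR on genes with at least 10 counts in every sample. Hsf1, the master regulator, had a log2 fold change of 0.14 (95% interval −0.71 to 0.996, edgeR adjusted p 0.830) at 2.43 to 9.02 CPM. Of 13 genes of the cytosolic chaperonin and its prefoldin partner 1 fell, Cct4 (124.0 ± 19.1 to 74.9 ± 11.1 CPM, log2 fold change −0.73, edgeR adjusted p 0.00156).

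In mitochondria, 5 of 16 chaperone and protease genes fell and 1 rose. Hspa9, the mitochondrial HSP70 that pulls imported chains into the matrix, measured 515.6, 671.9, 552.4 and 639.2 CPM in WT and 310.8, 457.8, 392.7 and 372.0 CPM in db/db. Each db/db library was below each WT library. Hspa9 fell from 594.8 ± 73.0 to 383.3 ± 60.6 CPM (mean ± SD over 4 libraries each), a log2 change of −0.63 with SE 0.14 and an edgeR adjusted p of 0.00295, and with the muscle covariate the log2 fold change was −0.60 (adjusted p 0.169). Pam16, which regulates the import motor, fell from 58.2 to 79.7 CPM in WT to 43.3 to 45.8 CPM in db/db (log2 fold change −0.63, edgeR adjusted p 0.00331). Clpp, the catalytic subunit of a matrix protease, fell (−0.71, 8.31e-04) and Spg7, a subunit of an inner membrane protease, rose (1.02, 5.45e-05). Beside the falls of Hspa9, Pam16 and Hspe1 stand those of the brown adipocyte genes given above, among them the mitochondrial genes Cox8b, Cox7a1 and Ucp1 (−0.63, −0.49 and −0.65 in log2 fold change), whose part in them was not tested.

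The partners of Hspa9 were looked at after their values were seen. Dnaja3, its J-domain protein, fell by 0.61 on the log2 scale (edgeR adjusted p 0.0304) and Grpel1, its nucleotide exchange factor, by 0.47 (0.0372), and both overlapped between the genotypes. Dnaja3 did not pass without WT 2, WT 3, WT 4, db/db 1 or db/db 3 (adjusted p up to 0.0876), and Grpel1 passed without WT 2 or db/db 3 and failed without each of the other 6 libraries (up to 0.105). Trap1, the mitochondrial HSP90, had a log2 fold change of 0.00 (95% interval −0.31 to 0.31, adjusted p 0.995). Dnaja3, Grpel1 and Pam16 overlap other expressed genes and are uncertain.

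**Figure D5:**
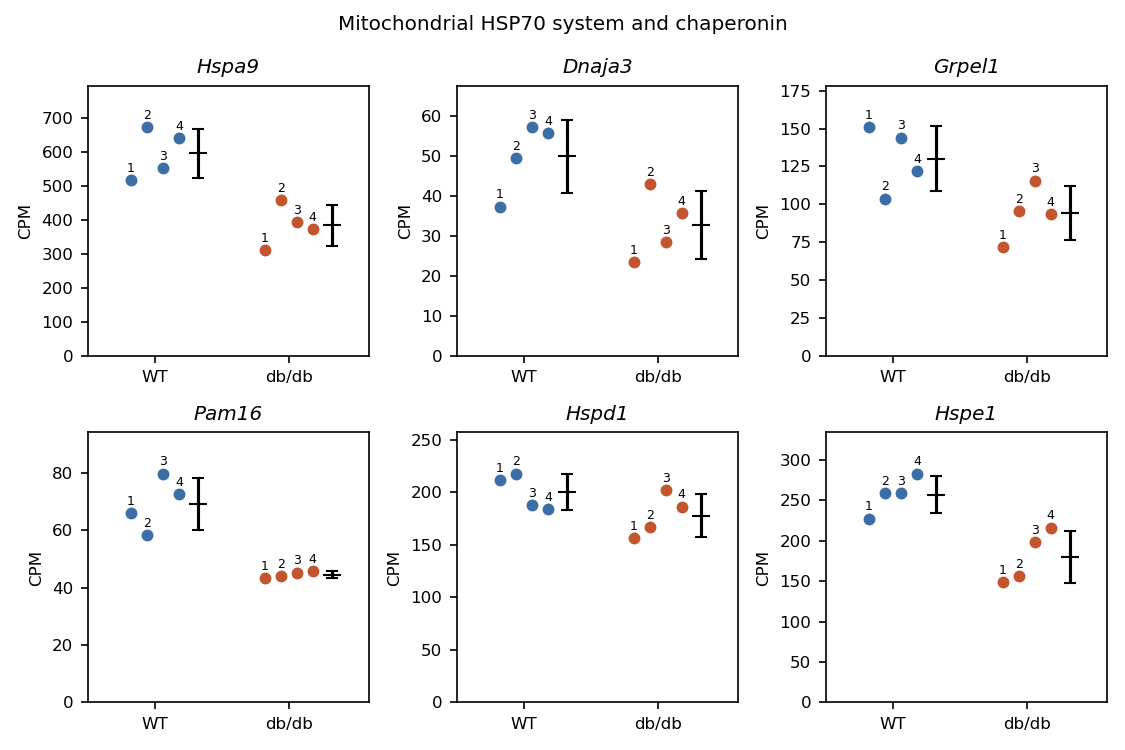
CPM of the mitochondrial HSP70 gene Hspa9, its partners Dnaja3, Grpel1 and Pam16, and the chaperonin genes Hspd1 and Hspe1 in 4 WT (blue) and 4 db/db (orange) libraries, on linear axes from 0 with replicate numbers and the mean and SD. The genotypes are apart for Hspa9, Pam16 and Hspe1 and overlap for Dnaja3, Grpel1 and Hspd1.

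Of 6 tested genes that heat shock induces outside the HSP70 and HSP90 families, 5 rose. Cryab, a small heat shock protein also abundant in muscle, rose from 18.7 ± 3.47 to 495.1 ± 136.6 CPM (mean ± SD over 4 libraries each), a log2 change of 4.73 with SE 0.22 and an edgeR adjusted p of 1.32e-10, and it overlaps Hspb2 on the other strand and is uncertain. Hspb1 rose from 97.9 ± 34.9 to 254.0 ± 34.5 CPM (mean ± SD over 4 libraries each), a log2 change of 1.38 with an edgeR adjusted p of 4.51e-05, and Serpinh1, the collagen chaperone, from 25.2 ± 7.08 to 63.1 ± 13.5 CPM (1.33, 1.67e-04). Beside these rises stand the higher muscle and fibroblast markers in db/db given above, whose part in them was not tested. The muscle covariate cannot test it, since the muscle score moves with genotype. With that covariate the log2 fold change was 3.90 for Cryab (adjusted p 6.62e-10), 1.03 for Hspb1 (0.0349) and 0.89 for Serpinh1, which did not pass (0.124).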

How the data were processed

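The authors sequenced single-end mRNA libraries made by a commercial service. Per the methods they trimmed reads with bbduk, aligned them to mm10 with STAR and deposited raw counts per Ensembl gene from HTSeq-count, whereas the submitters' processing notes name Trimmomatic, HISAT2 and DESeq2. Strand use and molecular identifiers are not given in the sources used here, so the counts may include PCR copies. A second table that the authors deposited is on a log2 scale. Its values equal log2 of the count times a constant of the sample plus 1, and they were used in 1 alternative. The sample sheet was not used.

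Samples were grouped by the genotype in their titles, 4 WT and 4 db/db. Of 31053 identifiers 30934 matched GENCODE M21, which is on the same build. Genes were filtered (filterByExpr, minimum count 10, minimum total 15), scaled by TMM and tested in edgeR (4.0.16, under R 4.3.3) by quasi-likelihood with genotype as the only term and Benjamini-Hochberg adjustment over 9264 genes at 0.05. CPM were computed on the tested genes' total times the TMM factor. The summed level of Hspa1a and Hspa1b was compared on log2(CPM + 1), and 3 count ratios with 0.5 added to each count, by exact two-sided permutation tests. Windows of 75 bases, the read length, of each gene's longest coding transcript were searched in all other transcripts. The fits were tested on simulated data. Alternatives were DESeq2 1.42.0, limma-voom and limma (3.58.1) on the deposited log2 values, 4 other scalings, 2 other filters, a skeletal muscle covariate, a replicate block and leaving out each sample.

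The 10 genes and all lists were chosen with earlier results of these data known. Genes outside the 10 were named by a rule: up to 3 of lowest adjusted p per direction and list, and the 3 non-members of highest correlation. Hspa4, Hsf1, Hsbp1, Chordc1, Dnaja3, Grpel1, Trap1, Hspb8, Ubb and the marker genes fall outside this rule and were chosen after their values were seen. The rule spoke of 8 cytosolic genes, of which 7 passed the filter. The series' design text calls the samples biological replicates.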

Additional observations from a re-analysis of the deposited data

How the results depend on the processing

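The count of the 9 tested chaperone genes that differed was 1 under most settings. It was 2 with at least 10 counts in every sample, with limma-voom and with the replicate number as a block, 0 with the skeletal muscle covariate, and 1 to 3 when single libraries were left out (2 without WT 3, 3 without db/db 2). The count over all genes, 2568, was 622 with the muscle covariate, 73.3% of them higher against 57.1% without it, and 2110 to 2422 with libraries left out. The chaperone network count, 26, was 7 with the covariate and 22 to 26 with libraries left out. For Hspa1a plus Hspa1b the log2 difference ran from −0.61 to 0.59 and for their ratio to Hspa8 from −0.80 to 0.73 with libraries left out. Reversals among the single genes were Hspa1a (−0.17 to 0.71), Dnaja1 (−0.35 to 0.01, 0.0148 without WT 3) and Hspa8 (−0.05 to 0.23, −0.0484 without db/db 4). The other 2 ratios kept their direction (0.44 to 0.76 for the HSP90 genes, 0.27 to 0.44 for Hspd1 to Hspe1), but 3 against 4 libraries cannot go below an exact permutation p of 0.0571. Of the values of the 9 single genes under settings other than left-out libraries, 94 kept direction and side of the threshold, 3 of Hsp90aa1 passed and 1 of Hspe1 did not. The cause of these changes was not tested.

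Same-numbered WT and db/db samples did not deviate together (r from −0.08 to 0.05), and 2 of 4 WT samples correlated best with their own number. These values do not settle whether the numbers pair animals. The block gave 2557 genes, and under it Hsp90aa1 passed (adjusted p 0.0451). Low counts, at most 24, and a wide spread between libraries both limit what Hspa1a and Hspa1b can show. In 28 sets of 4 libraries examined for an outlying library, 0 were found, where chance gives 1.4. Apart from these sets, db/db 4 stood out in summed red blood cell markers, at 16921 CPM against 6435 to 6986 CPM in the other db/db libraries.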
